A study of Mus musculus with 2 samples.

Results

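The small MAF genes Mafk, Maff and Mafg were followed through the regions that chromatin immunoprecipitation with sequencing (ChIP-seq) gave for MAFK, the product of one of them. Every region of the main list was taken whose summit, the deposited position of highest signal, lay within 120 kb of an annotated transcription start site (TSS) of a member. This gave 15 of 16865 regions, of which 9 lay near Mafg, 5 near Maff and 1 near Mafk. The cells were ES-E14, a mouse embryonic stem cell line of strain 129/Ola that the labels call male, with no treatment or genetic change named. There were 2 biological replicates of this 1 group, both from the same source of cells, and no second condition, so nothing was tested between groups and the spread between replicates may be partly technical. The labelled cell type could not be checked from lists of regions, and the control library named in the labels was not analysed here.

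Small MAF proteins bind DNA through a basic region and a leucine zipper but lack a transactivation domain of their own. As homodimers or as dimers with one another they are known as repressors, and as partners of the cap'n'collar (CNC) factors, such as NRF2, and of BACH1 and BACH2 they occupy antioxidant response elements (AREs) and MAF recognition elements (MAREs). In mouse, Mafg is itself a known target of NRF2 through such elements.

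The sequences that carry the result are the windows of 101 bases around the summits near and next to the 3 genes. They are given on the plus strand of GRCm38 (mm10) from the RefSeq assembly. That assembly comes from another mouse strain than these cells, so letters in the cells may differ. Capitals mark matches, on either strand, to the ARE core (TGACNNNGC or TGAGNNNGC) and to the MAF core TGCTGA, or, at the Maff promoter alone, to the CRE-type element TGACGTCA. The first pair comes from inside Mafg and shows a composite of the ARE core with the MAF core at both summits.
Mafg intron, chr11:120630152-120630252: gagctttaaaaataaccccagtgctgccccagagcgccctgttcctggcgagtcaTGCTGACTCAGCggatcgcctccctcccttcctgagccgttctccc
Mafg first intron, chr11:120632946-120633046: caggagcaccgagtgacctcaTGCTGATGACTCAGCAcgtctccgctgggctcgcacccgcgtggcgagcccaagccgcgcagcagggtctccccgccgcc
The next comes from an intron of P4hb downstream of Mafg and holds an unbroken MARE palindrome.
P4hb intron, chr11:120565244-120565344: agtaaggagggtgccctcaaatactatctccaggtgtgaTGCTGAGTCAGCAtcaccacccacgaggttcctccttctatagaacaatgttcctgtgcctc
The next 3 contrast the Maff promoter with the stronger regions on its upstream side. The Pla2g6 window lies in an untranslated region (UTR), and 30 bases of it are shown. The Maff promoter window is shown up to the TSS.
Pla2g6 UTR, chr15:79328208-79328237: acctcgGCTTACTCAGCActtctcagccct
Upstream of Pla2g6 and Maff, chr15:79333462-79333562: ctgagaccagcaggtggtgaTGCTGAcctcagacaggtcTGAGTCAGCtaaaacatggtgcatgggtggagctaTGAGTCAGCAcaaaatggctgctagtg
Maff promoter, chr15:79347462-79347519: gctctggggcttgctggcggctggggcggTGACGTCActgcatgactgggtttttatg
The last pair belongs to Mafk: its one region of the main list, and the strongest position inside the gene, which was below the threshold of that list.
Upstream of Mafk, chr5:139695054-139695154: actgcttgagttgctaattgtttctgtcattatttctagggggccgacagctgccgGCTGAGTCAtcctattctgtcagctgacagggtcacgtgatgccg
Mafk intron, below threshold, chr5:139795014-139795114: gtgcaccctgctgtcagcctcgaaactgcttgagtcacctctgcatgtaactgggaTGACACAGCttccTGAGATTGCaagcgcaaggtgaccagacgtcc

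The signal of a region is the value that the authors' peak caller gave it, on a scale the sources do not state, and it is used here only to describe and rank regions. In the main list it ranged from 3.80 to 509.4 with a median of 27.9. The main list, called optimal by the authors, pools both replicates. Each replicate also has a relaxed list, which includes background, of 264306 regions for replicate 1 and 300000 for replicate 2, and a thresholded list of 7748 and 9541 regions. No read counts come with the lists, so the depth behind these values is unknown.

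Mafg had the strongest MAFK signal of the 3 genes at its own TSSs. In the notation of GENCODE vM21, Mafg (ENSMUSG00000051510.13) is on the minus strand of chromosome 11, with the TSS of Mafg-201 at 120633600 and those of 3 further protein-coding transcripts at 120630797, 120630636 and 120630148. The region chr11:120630083-120630346 had its summit 54 bp upstream of the TSS of Mafg-202, in an intron of the longer transcripts. Its signal was 221.8 in the pooled list (rank 277 of 16865), 101.1 in replicate 1 (rank 372 of the relaxed list) and 121.9 in replicate 2 (rank 187). The region chr11:120632867-120633134 had its summit 560 bp downstream of the TSS of Mafg-205, a processed transcript that starts beside Mafg-201, and lay in the first intron. Its signal was 135.5 in the pooled list (rank 852), 70.1 in replicate 1 (rank 804) and 66.2 in replicate 2 (rank 869). The summits of the pair were 2794 bp apart, and both regions were in the thresholded lists of both replicates.

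Both Mafg windows held the composite element, TGACTCAGCA or TGAGTCAGCA, which contains an ARE core, the reverse of a MAF core and an AP-1 element (TGACTCA or TGAGTCA). In both windows it was part of a T-MARE, the palindrome TGCTGACTCAGCA or its form TGCTGAGTCAGCA, with 1 mismatch. The first-intron window had a GC content of 71.3% and 11 CpG dinucleotides. Across 21938 protein-coding genes, 1.07% had at least 2 summits less than 1 kb from a TSS, and Mafg was one of them.

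Set against other genes, the Mafg signal was near the top. Of the 5898 protein-coding genes with a summit within 10 kb of a TSS, Mafg ranked 107 by its strongest signal, and 98.2% of these genes were weaker. The median of the strongest signal over these genes was 31.3. With 9 summits within 120 kb, Mafg had more than 97.2% of all protein-coding genes, whose median was 2 with an interquartile range of 1 to 4 and a maximum of 38. Its surroundings were also crowded, with 19 other protein-coding genes with a TSS within 120 kb, and no adjustment for gene density was made.

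**Figure D1:**
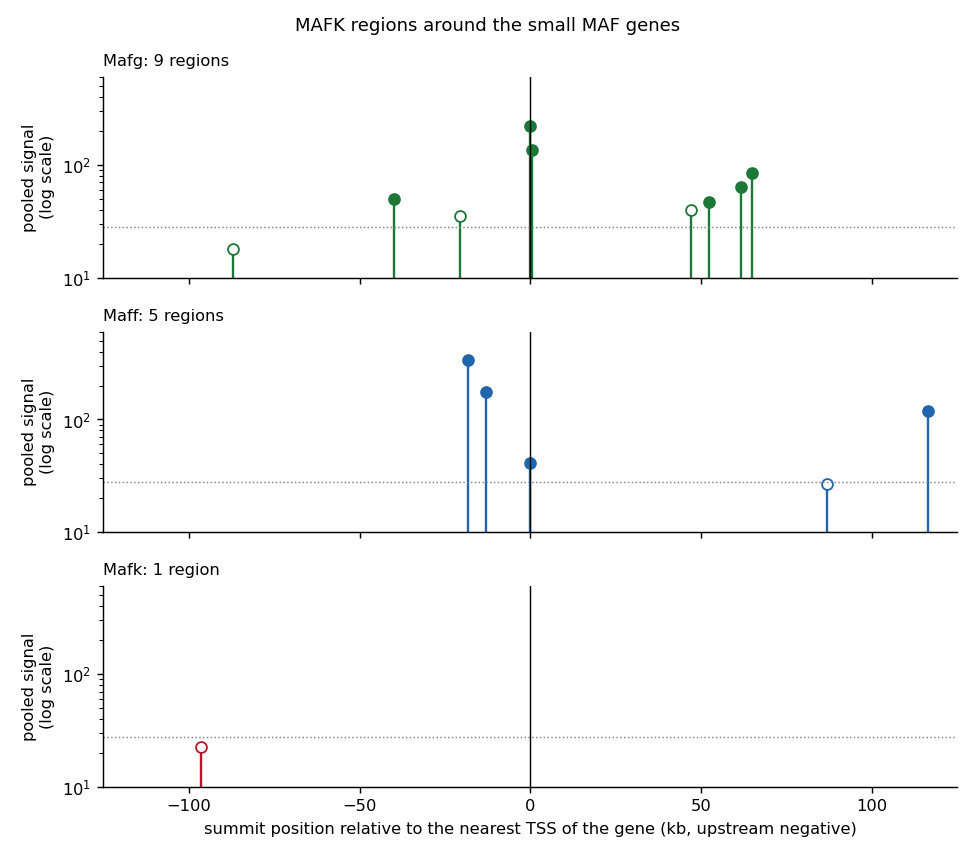
Pooled signal of the 15 regions (log scale) against the position of the summit relative to the nearest TSS of Mafg, Maff or Mafk, in kb with upstream negative. Filled points overlapped the thresholded lists of both replicates, open points did not, and the dotted line is the median of the main list, 27.9. Of the 9 Mafg summits, 2 are within 1 kb of a TSS, at 54 and 560 bp. Of the 5 Maff summits, 1 is, at 8 bp, and the single Mafk summit is 96409 bp away.

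The other 7 regions counted for Mafg were nearest to other genes. Downstream, 2 of them were in introns of P4hb, which encodes protein disulfide isomerase, and 2 lay beside Arhgdia, which encodes a GDP-dissociation inhibitor of small GTPases. The P4hb region chr11:120565206-120565375, 64854 bp from Mafg, had a signal of 84.4 in the pooled list, 43.1 in replicate 1 (rank 1933) and 41.7 in replicate 2 (rank 1975). It held the only T-MARE without a mismatch among the 15 regions, with the composite on both strands. Such an exact palindrome occurred in 361 of 16836 regions on the assembled chromosomes (2.14%), whose median signal was 97.6 with an interquartile range of 55.6 to 178.3. The P4hb palindrome thus lay inside that range but below its median, and below both Mafg regions, whose T-MAREs each had a mismatch.

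The second P4hb region, chr11:120568372-120568667, had a signal of 63.6 in the pooled list, 35.0 in replicate 1 and 31.7 in replicate 2, with a T-MARE of 1 mismatch. Beside Arhgdia, chr11:120577726-120578021 had 46.4 in the pooled list, 20.7 in replicate 1 and 22.7 in replicate 2, with the composite. The other Arhgdia region, chr11:120582952-120583247, had 40.0 in the pooled list, 21.3 in replicate 1 and 24.0 in replicate 2, and was in the thresholded list of replicate 1 but not of replicate 2. Its window was the poorest in GC of the 15, at 33.7%, and held a MAF core but no ARE core.

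Upstream of Mafg, 3 regions had pooled signals between 17.8 and 49.4. The region chr11:120654083-120654378 was in coding sequence of Notum, which encodes a secreted Wnt deacylase, and had a signal of 35.5 in the pooled list, 14.4 in replicate 1 and 22.3 in replicate 2. The region chr11:120673434-120673729 was in a UTR of Aspscr1, which encodes a tether for GLUT4 vesicles, 178 bp from its TSS, and had 49.4 in the pooled list, 16.7 in replicate 1 and 32.8 in replicate 2. The region chr11:120720512-120720807 was in coding sequence of Lrrc45, 810 bp from a TSS of Rac3, a small GTPase. It had 17.8 in the pooled list, the lowest of the 15, with 3.84 in replicate 1 (rank 63614) and 12.7 in replicate 2 (rank 10208). It was also the only one of the 15 outside the conservative lists. It alone of the 15 was below the top score of the deposited irreproducible discovery rate (IDR) scale, at 713 of 1000. The conservative lists held 16082 and 16644 regions, against 16865 in the main list. Neither trait was counted over the main list, so nothing is read from them.

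Maff showed the reverse arrangement, with a modest region at its own TSS and the strongest of all 15 regions close by. Maff (ENSMUSG00000042622.14) is on the plus strand of chromosome 15, with TSSs at 79346621, 79347520, 79348064 and 79348402. The promoter region chr15:79347364-79347659 had its summit 8 bp upstream of the TSS of Maff-201, in an intron of Maff-203. Its signal was 40.7 in the pooled list (rank 5363), 20.1 in replicate 1 (rank 5383) and 20.7 in replicate 2 (rank 5447), and it was in both thresholded lists. Among the 5898 genes with a summit within 10 kb, Maff ranked 2194 and 62.8% were weaker.

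The Maff promoter window was the only one of the 15 with neither an ARE core nor a MAF core, against 20.9% of all regions. It held instead a CRE-type element 14 to 21 bp before the summit, a site type known for CREB and ATF factors. That element stood in 1 of the 15 windows (6.67%), against 0.273% of the other regions and 0.0594% of windows centred 1000 bp to either side of the summits. In the RefSeq table of promoters, 250 bases before to 50 after each start, the CRE-type element stood 29 bp before the same Maff TSS, and 1.55% of 32851 promoters held one. A match says only that the letters are there, and which protein was bound was not tested.

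Upstream of Maff lie Pla2g6, which encodes a calcium-independent phospholipase A2, and the 2 strongest regions of this gene's neighbourhood. The region chr15:79328076-79328378 had its summit 2 bp from a TSS of Pla2g6, in its UTR, and 18395 bp upstream of Maff. Its signal was 340.0 in the pooled list (rank 52, the top 0.308%), 153.2 in replicate 1 (rank 106) and 183.5 in replicate 2 (rank 32). The region chr15:79333401-79333642, 13109 bp upstream of Maff and 5122 bp from Pla2g6, had 173.6 in the pooled list (rank 482), 72.0 in replicate 1 (rank 762) and 99.4 in replicate 2 (rank 356). The Pla2g6 window had a GC content of 69.3% and a T-MARE with 2 mismatches, and the other window held 2 ARE cores of which 1 was part of the composite.

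Downstream of Maff, both regions were nearest to Csnk1e, which encodes casein kinase 1 epsilon. The region chr15:79464569-79464756, 116243 bp from Maff, had a signal of 118.1 in the pooled list, 50.5 in replicate 1 and 65.9 in replicate 2. The region chr15:79435113-79435408, in a Csnk1e intron 86859 bp away, had 26.5 in the pooled list, 12.7 in replicate 1 and 14.1 in replicate 2, and was in the thresholded list of replicate 2 but not of replicate 1. It was the weakest region with the composite element. Maff thus had 5 summits within 120 kb, more than 80.6% of protein-coding genes, with 7 other protein-coding genes in the same span.

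Mafk, the gene of the protein that was immunoprecipitated, had no region of the main list near it. Mafk (ENSMUSG00000018143.10) is on the plus strand of chromosome 5, with TSSs at 139791513, 139791534 and 139797514. The nearest region, chr5:139694956-139695251, had its summit 96409 bp upstream, between genes and 15123 bp from Micall2, which encodes a partner of the GTPase RAB13. Its signal was 22.6 in the pooled list (rank 10648), 9.41 in replicate 1 (rank 13335) and 11.8 in replicate 2 (rank 11300). It was in neither replicate's thresholded list but in both conservative lists, and its window held an ARE core that is also an AP-1 element. Among protein-coding genes, 25.5% had their nearest summit farther away than Mafk, and the median distance was 33148 bp.

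Below the threshold, the relaxed lists did hold positions inside Mafk. In the pooled relaxed list, 10 regions lay within 10 kb of a Mafk TSS, as many as for Mafg and for Maff. In the relaxed lists of replicates 1 and 2 there were 4 and 9 for Mafk, 4 and 8 for Maff, and 10 and 16 for Mafg. The same count over all genes is not given here, so nothing is read from these numbers. The strongest Mafk region of the pooled relaxed list was the intronic one printed above. It lay 3551 bp downstream of the first TSS and 2450 bp upstream of that of Mafk-202. Its signal was 13.7 in the pooled list (rank 19992 of 300000), 4.13 in replicate 1 (rank 52574) and 10.01 in replicate 2 (rank 14086), and its window held 2 ARE cores. Of the regions of the main list, 1022 (6.06%) had a lower signal than this one. The replicates differed in which position was strongest, since in replicate 1 it was one 173 bp downstream of the first TSS, in a UTR, with a signal of 6.14. In the RefSeq promoters, Mafk had an ARE core 13 bp before the start in that table and Mafg one 222 bp before its own. For both genes these starts differ from the GENCODE TSSs given above, so the distances do not carry over to them. Of the 3 Maff promoters in that table, the one at chr15:79346371-79346670 had 2 ARE cores and the others had none. An ARE core stood in 23.0% of all promoters.

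**Figure D2:**
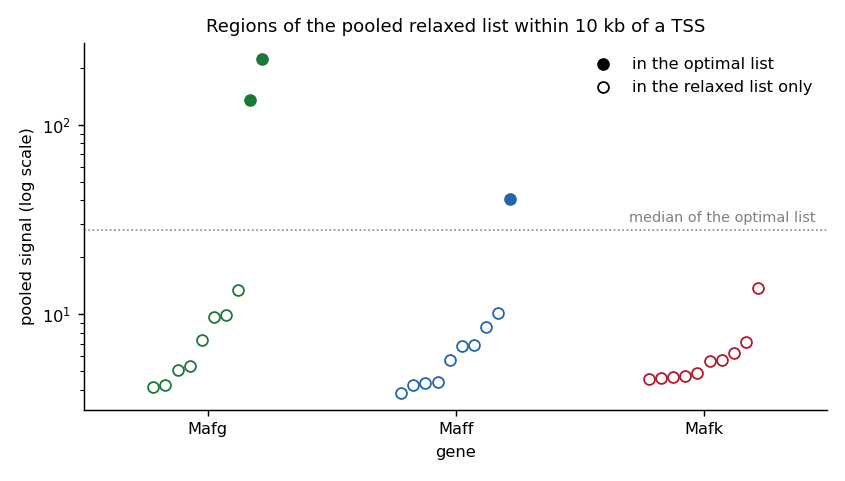
Pooled signal (log scale) of every region of the pooled relaxed list within 10 kb of a TSS of Mafg, Maff or Mafk, with each gene's regions set side by side from low to high. Filled points are also in the main list, whose median of 27.9 is the dotted line; each gene has 10 points, and the strongest is 221.8 for Mafg, 40.7 for Maff and 13.7 for Mafk.

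Counted over the 3 members, 2 of 3 had a TSS with a summit less than 1 kb away, against 8.66% of all protein-coding genes. The same 2 of 3 had one within 10 kb, against 26.9%, and 3 of 3 had one within 120 kb, against 78.8%. With 3 genes chosen with earlier results of these data known, these counts are a description and were not tested. Just outside the limit of 120 kb, the next summits were at 120031 bp for Mafg with a signal of 25.6, at 121742 bp for Maff with 64.6 and at 147397 bp for Mafk with 18.5.

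**Figure D3:**
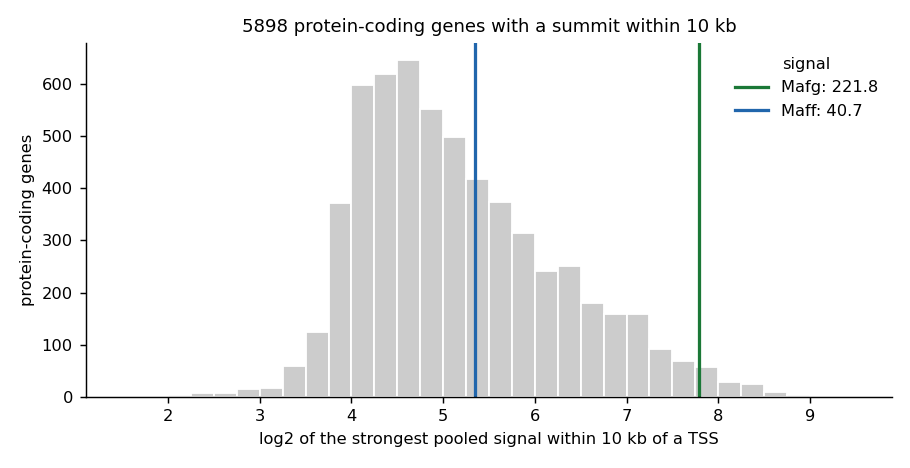
Number of protein-coding genes by the log2 of the strongest pooled signal within 10 kb of a TSS, over the 5898 genes with such a summit, with lines at Mafg (221.8) and Maff (40.7). Mafg lies in the upper tail and Maff inside the bulk of the distribution; Mafk has no summit there and is not drawn.

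The 15 regions had a median signal of 49.4 against 27.8 over the other 16821 on the assembled chromosomes, and 12 of 15 (80%) were above the median of the main list, against 49.9% of the others. Of the 15, 6 (40%) had their summit under 1 kb from the TSS of a protein-coding gene, against 11.8% of the others. The regions were chosen by their distance to TSSs, in Mafg's case in a gene-dense stretch, so nothing is read from that difference. Of the 15, only 3 were nearest to the member itself, the pair in Mafg and the one at Maff. The GC content of the windows ran between 33.7% and 71.3% with a median of 56.4%, and none was mostly repeat-masked.

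Of the 15 regions, 10 overlapped the thresholded lists of both replicates by at least 1 bp, against 35.4% of the 16865 regions. The 15 were also stronger than the list as a whole, and the part of signal in this share was not tested. Each replicate's thresholded list held 11 of them, against 7469 (replicate 1) and 8922 (replicate 2) of the 16865 regions. The ratio of the signal in replicate 2 to that in replicate 1 ran from 0.906 to 3.32 over the 15, with a median of 1.20, against a median of 1.06 and an interquartile range of 0.760 to 1.51 over the 16500 regions found in both relaxed lists. The highest ratio was that of the Lrrc45 region upstream of Mafg. Spearman's correlation between the replicates' signals was 0.954 over the 15 and 0.685 over all, as a description of points that share their libraries.

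By pooled signal, the Pla2g6 region came first, followed by the Mafg region at Mafg-202, the second region upstream of Maff, the first-intron region of Mafg and the farther Csnk1e region. The ranks in the replicates separated 8 of the 14 neighbouring pairs of this order in the same direction. In 5 pairs the ranges of the ranks overlapped, which includes the Mafg-202 region with the second one upstream of Maff and the last pair, Mafk upstream and Lrrc45. In 1 pair, the Maff promoter and the GC-poor Arhgdia region, both replicates had the opposite order, with pooled signals of 40.7 and 40.0.

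**Figure D4:**
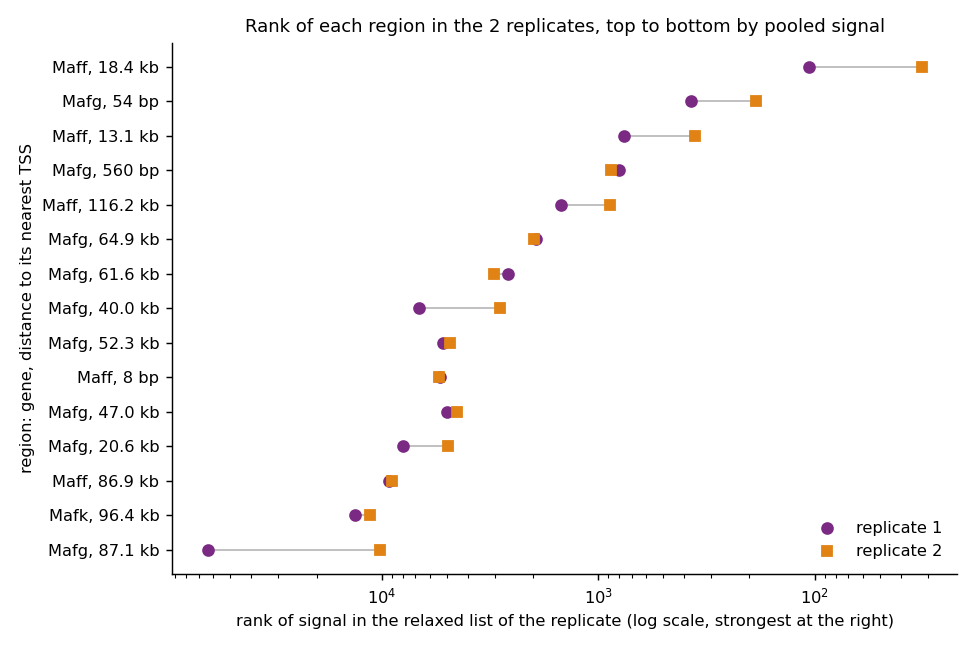
Rank of each of the 15 regions by signal in the relaxed list of replicate 1 (circles) and replicate 2 (squares), on a log axis with the strongest at the right, ordered from top to bottom by pooled signal. The replicates lie close for most regions, and farthest apart for the lowest one, at ranks 63614 and 10208.

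Most of the windows held CNC-MAF letters near the summit, as did most other regions of the main list. An ARE core lay within 50 bp of the summit in 13 of 15 windows (86.7%), against 60.3% of the other regions and 7.15% of the flanking windows. The centre of the nearest ARE core was 4 to 38 bp from the summit with a median of 10 bp over these 13, and within 25 bp in 12. The MAF core lay in 11 of 15 (73.3%), against 62.8% of the other regions and 7.29% of the flanks. The composite lay in 6 of 15 (40%), against 28.2% of the others and 0.0891% of the flanks, and in 4 of the 9 regions near Mafg and 2 of the 5 near Maff. A T-MARE with up to 2 mismatches lay in 7 of 15 (46.7%), against 39.2% and 0.401%. The palindrome TGCTGACGTCAGCA, which is centred on a CRE-type element and is called C-MARE, lay in 0 of 15 with up to 2 mismatches, against 1.62% of the other regions. These elements share letters, so the counts are not independent of each other. The 15 were also stronger than the main list as a whole, and the part of signal in these shares was not tested.

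**Figure D5:**
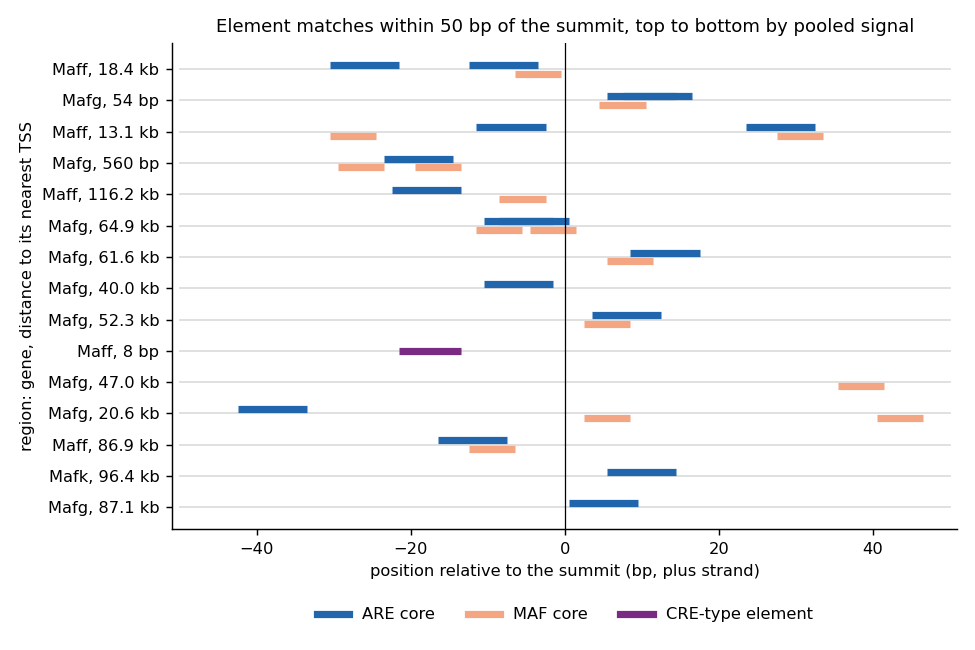
Position, in bp from the summit along the plus strand, of each ARE core, MAF core and CRE-type match within 50 bp of the summits of the 15 regions, ordered from top to bottom by pooled signal. The ARE core nearest to the summit has its centre within 25 bp of it in 12 of 13 regions. The Maff promoter (Maff, 8 bp) has the CRE-type element alone.

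Other genes of the pathway had summits at varied distances, set against the 26.9% of all protein-coding genes with one within 10 kb and the 8.66% with one within 1 kb. The large MAF genes Maf, Mafa and Nrl, whose products carry a transactivation domain, had no summit within 10 kb, and their nearest summits were at 68064, 27160 and 61248 bp. Of the 7 genes of the list of partners and their inhibitor, 4 had a summit within 10 kb and 2 within 1 kb. Keap1, whose product holds NRF2 in check, had a strongest signal of 150.7, and Bach1, a CNC-type repressor that dimerizes with small MAFs, had 145.3. Bach2 had 30.8 and Nfe2l2, which encodes NRF2, had 22.4. Nfe2, Nfe2l1 and Nfe2l3 had their nearest summits at 11369, 42297 and 111688 bp. Mafg, at 221.8, was above all 4 of these genes with a summit within 10 kb, and Maff, at 40.7, stood between Bach1 and Bach2.

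The genes most like each member were found by the sum of the absolute log2 differences in the strongest signal within 10 kb over the pooled list and both replicates, that is, over 3 lists that share their libraries. For Mafg, among 5777 genes, they were Acap1, Kctd11 and Tmem95, which share a single region with a signal of 221.5 in the pooled list and a summed difference of 0.0466. For Maff, among 5778 genes, they were Atp6v0a2 with a summed difference of 0.0551, Rimbp2 with 0.0652 and Csad with 0.0789.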

How the data were processed

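MAFK ChIP-seq from 2 replicates of 1 group was deposited as lists of regions on mm10. The text notes deposited beside them describe 2 processing runs that used the irreproducible discovery rate (IDR), and the optimal list of the first run was the main one. For the aligner and the peak caller, a name is not given in the sources used here. The authors deposited a signal value per region with no stated scale, a −log10 q-value and a scaled IDR score. The replicates' thresholded lists come from the second run, so overlaps with them cross both runs. The pooled lists of both runs share reads: the 15 signals differed by at most 1.55%, so the second run is no independent check. A further 4 ranked lists were not used.

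Summits were set against TSSs of GENCODE vM21, and sequence was read from RefSeq GRCm38. Elements were sought on either strand up to 50 bp from each summit, and flanks lay 1000 bp to either side. Python 3.11.15 with numpy 2.4.6 and pandas 2.3.3 was used, and the scripts were tested on simulated data. All 3 members, their regions, the gene nearest to each region, a fixed list of related genes and the 3 most similar genes are named. The members and lists were chosen with earlier results of these data known. One gene of the list of related genes is not reported here. No p-value was computed.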

Additional observations from a re-analysis of the deposited data

How the results depend on the processing

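Of 72 alternative values of 11 results, 38 were unchanged within the limits set. The limit was 1.5-fold for counts and, for other values, the standard deviation of the 2 replicates' values. The latter was narrow, so a shift as small as 96409 to 96412 bp for Mafk counted as changed. The single Mafk region was lost (0 regions) in the strongest 50% of regions, within 50 kb, and in each replicate's own thresholded list, where the nearest summit lay 172738 bp away without replicate 2 and 172735 bp away without replicate 1, and 172736 bp away in the strongest 50%. In both second-run lists it was 96412 bp away. Maff had 8 regions in the conservative list of the second run and 3 within 50 kb, and 4 to 5 without one replicate. Mafg had 5 within 50 kb and 6 to 7 without one replicate. The regions that the other lists added near Maff and Mafg had signals of 10.96 to 18.3, and a second-run one lay 949 bp from a Mafg TSS. Without one replicate the nearest summit was 8 to 16 bp from Maff and 65 to 79 bp from Mafg. The percentile of the Mafg signal, 98.4 in the main list, was 98.28, 98.29 and 98.25 in the other pooled lists. It was 96.72 in the strongest 50%, where the cut alone sets it, and 94.95 to 97.87 without one replicate, in shorter lists. Within the relaxed lists it was 99.86 (replicate 1) and 99.94 (replicate 2). Ranked by q-value in the pooled relaxed list, the Mafg region stood at 98.88. Its q-value in the main list equalled those of the weaker P4hb regions, so ranking by q-value does not separate Mafg from them. The percentile of the Maff signal, 68.2 in the main list, was 66.68, 67.75 and 66.83 in the other pooled lists. It was 36.40 in the strongest 50%, where the cut alone sets it. Without one replicate it was 30.96 to 42.29, in shorter lists of 7748 and 9541 regions, so these percentiles are not on one scale. It was 98.23 by q-value in the pooled relaxed list and 97.96 and 98.18 in those of replicates 1 and 2, which hold far more weak regions by construction. With 1 mismatch allowed, 12 regions held the composite. Its share over the other regions was not computed in this form, so nothing is read from that count. The other counts of elements and of overlap with the replicates moved by less than 1.5-fold. Read depth is unknown, so no limit of detection can be given for Mafk.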
